A study of Aspergillus nidulans with 38 samples.

Results

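The transcriptome of *Aspergillus nidulans* after 75 min of micafungin was set against that of the same flasks at 0 min, sampled just before the drug was added. The members are the 3 libraries at 75 min and the 3 at 0 min, 6 of the 38 libraries of a time course with 13 time points, and they were chosen by the time given in the labels. The fungus was the parental strain FGSC A1405, with no deletion, grown for about 20 h in low pH YGV medium at 28 °C, and the dose of micafungin was set by the biomass, with 20 ng/ml given per g/kg. Each of the 3 biological replicates was 1 shake flask sampled in series, so libraries with the same number share a flask. A culture of the same age without the drug was not analysed here, so 75 min of micafungin and 75 min more of growth cannot be told apart.

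Micafungin is an echinocandin, an antifungal that blocks β-1,3-glucan synthase, the enzyme complex that spins the main structural polymer of the hyphal wall. Damage to the wall is sensed at the plasma membrane and passed through the small GTPase RhoA and protein kinase C to a cascade of MAP kinases (BckA, MkkA and MpkA), which acts on transcription factors such as RlmA. In *A. nidulans* this cell wall integrity pathway is known for its control of α-1,3-glucan synthase genes. The study states that many other wall genes there, with those of β-1,3-glucan and chitin synthases among them, are regulated independently of MpkA. Echinocandin-treated fungi are known to place more chitin and α-1,3-glucan in their walls.

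The 6 libraries held 5973782 to 10036333 reads counted on genes, and 8290 of 9541 genes had reads in at least 2 libraries at every time point and were tested. Values are given as CPM, reads per 1000000 of the library's TMM-scaled total. 2 libraries at 0 min stood apart. At 0 min, the library of flask 2 was at least 4-fold above both other 0 min libraries in 88 of 7899 genes with a mean of at least 1 CPM (1.11%), and the 0 min library of flask 3 was at least 4-fold below both others in 94. The other 4 libraries were that far above both partners in 2 to 18 genes and that far below in 7 to 31. The genes of flask 2 that stood apart include those of sulfonate use and of hydrogen peroxide removal, and results that rest on them are given with and without flask 2. Markers of growing hyphae (*actA*, *benA*, *gpdA*, *fksA* and *chsB*) summed to 6521 to 7271 CPM at 75 min, against 8138 to 10667 CPM at 0 min. Those of developing conidiophores (8 genes) summed to 28.0, 94.1 and 25.1 CPM at 75 min in flasks 1 to 3, against 22.3, 24.4 and 20.9 CPM at 0 min. The large rise was in flask 2 alone. In that flask the reads of *ivoB* went from 13 at 0 min to 489 at 75 min. Those of *brlA* went from 32 to 234, and those of *abaA* from 17 to 81. *wetA* (72 to 59), *yA* (90 to 93), *wA* (13 to 14), *rodA* (7 to 7) and AN8006 (2 to 4) showed no rise of that size. In bulk mycelium, fewer cells of a type and less RNA per cell cannot be told apart.

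No gene differed between 75 min and 0 min past an adjusted p of 0.05 in edgeR's quasi-likelihood test with the flask as a block (0 of 8290, 0.0%, lowest adjusted p = 0.173). Before adjustment, 1156 genes had p under 0.05 (13.9%), of which 691 were higher at 75 min (8.34%) and 465 were lower (5.61%). DESeq2, with the same block, called 445 genes (5.37%), of which 320 were higher (3.86%) and 125 lower (1.51%), and limma-voom called 0. Fitted without flask 2, edgeR called 84 of the 8290 genes, 82 of them higher. Without flask 1 it called 0, and without flask 3 also 0. Each such fit has 1 residual degree of freedom. Within flasks, 1672 genes were higher at 75 min in all 3 flasks (20.2%) and 1550 were lower in all 3 (18.7%). The 3 libraries at 75 min lay above all 3 at 0 min for 883 genes (10.7%) and below them for 801 (9.66%). The median log2 fold change over all genes was 0.01. The genes below are therefore described by their values, and counts at unadjusted p are set against these shares.

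**Figure D1:**
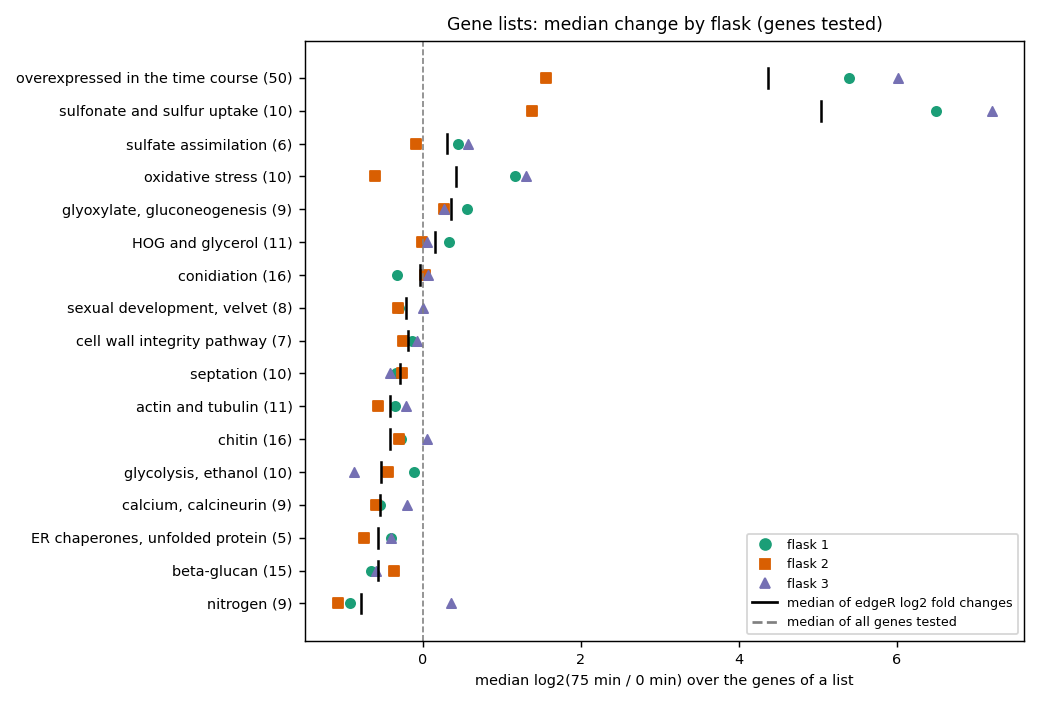
Median log2(75 min / 0 min) of the genes of 17 lists, with the number tested in brackets. Coloured points are the 3 flasks, black bars the medians of the edgeR fold changes, and the dashed line the median over all genes tested. Sulfonate and sulfur uptake genes had flask medians of 6.50, 1.38 and 7.20, and β-glucan genes lay below 0 in every flask.

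The 10 genes with the largest smallest-flask change in the higher direction had low levels at 0 min, and flask 2 held the most reads there. AN3339, a relative of a quinone oxidoreductase of *Neurospora crassa*, stood at 23.4, 18.9 and 1.59 CPM at 75 min in flasks 1 to 3, against 0.34, 0.40 and 0 CPM at 0 min (143, 197 and 12 reads, against 2, 4 and 0). Its log2 fold change was 5.76 ± 0.38 (SE; edgeR, unadjusted p = 4.90e-05, adjusted p = 0.173). The groups did not overlap, and flask 3 was the lowest library at both times. AN7954, a relative of an aldose reductase of *N. crassa*, stood at 36.3, 609.8 and 34.8 CPM at 75 min, against 1.36, 7.54 and 0.77 CPM at 0 min. The log2 fold change of AN7954 was 5.68 ± 0.39 (edgeR, adjusted p = 0.173), with flask 2 the highest at both times.

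*agnE*, which encodes an α-1,3-glucanase, stood at 34.5, 127 and 7.15 CPM at 75 min, against 1.70, 6.65 and 0 CPM at 0 min, a log2 fold change of 4.52 ± 0.47. AN2469, a short-chain dehydrogenase relative, stood at 90.0, 76.4 and 8.74 CPM at 75 min, against 2.22, 2.08 and 0.77 CPM at 0 min. AN2116, a predicted coenzyme-binding protein, stood at 37.5, 40.7 and 3.18 CPM at 75 min, against 0.34, 2.48 and 0.15 CPM at 0 min. In these 3 genes the groups did not overlap, and flask 3 had the lowest level at both times. Their log2 fold changes lay between 4.52 and 4.89, with an edgeR adjusted p of 0.173 for each.

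The other 5 of the 10 were AN1600 (a member of the NmrA family), AN1614 and AN3996 (predicted methyltransferases), AN5487 and AN8007. Their log2 fold changes were 3.91, 3.73, 4.60, 3.29 and 2.96. In each of the 10 the lowest library at 75 min lay above the highest at 0 min, as in 10.7% of all genes. DESeq2 called all 10, with adjusted p-values from 1.1e-28 to 3.1e-05, and 3.86% of all genes in this direction. The 10 were picked for their change in every flask of these same libraries, so neither count is independent evidence.

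**Figure D2:**
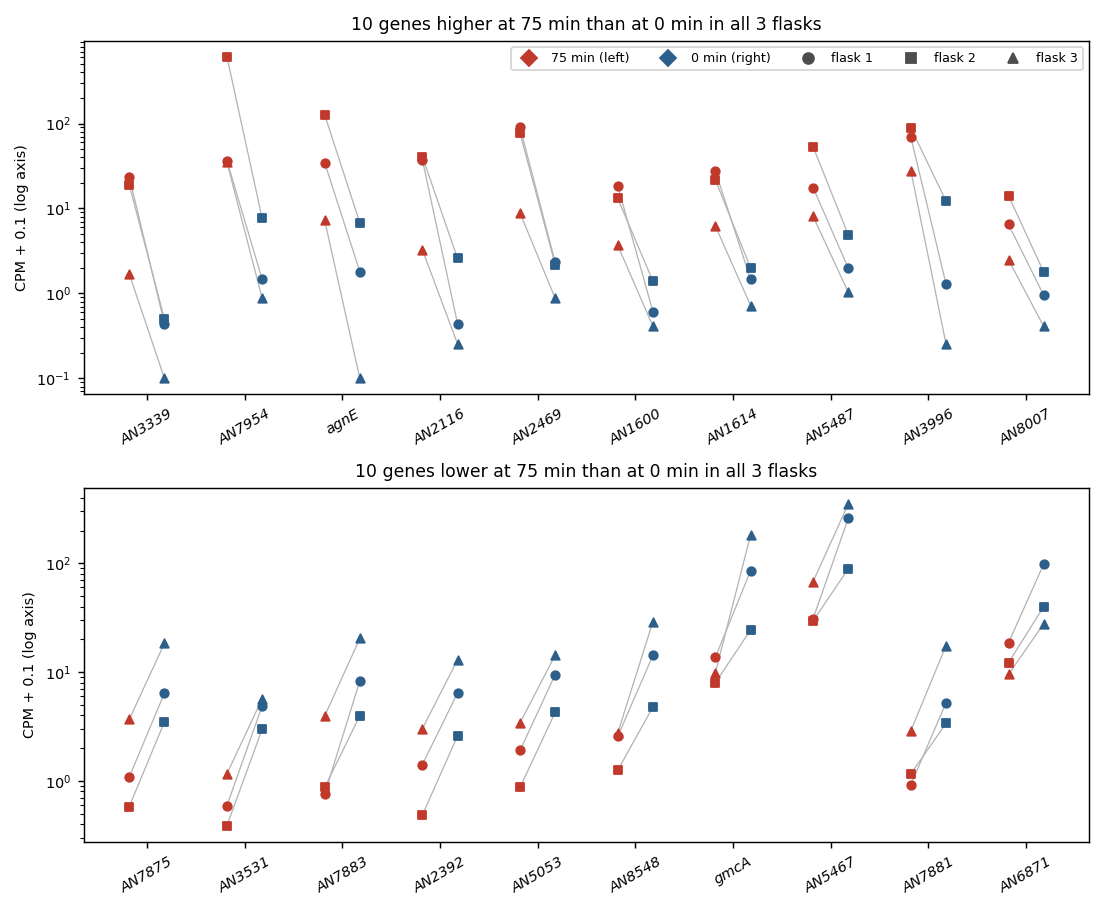
CPM + 0.1 on a log axis for the 10 genes higher (top) and the 10 lower (bottom) at 75 min that had the largest smallest-flask change, with 75 min left of 0 min, a marker for each flask and lines joining a flask's libraries. AN3339 stood at 23.4, 18.9 and 1.59 CPM at 75 min, against 0.34, 0.40 and 0 CPM at 0 min, and AN5467 at 30.9, 29.5 and 67.8 CPM, against 259, 89.0 and 351 CPM.

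Among the genes lower at 75 min, AN5467 stood at 30.9, 29.5 and 67.8 CPM, against 259, 89.0 and 351 CPM at 0 min. The edgeR fold change on the log2 scale was -2.34 ± 0.33 (edgeR, adjusted p = 0.185). *gmcA*, which encodes a GMC oxidoreductase, stood at 13.6, 7.87 and 9.79 CPM at 75 min, against 85.4, 24.3 and 182 CPM at 0 min, a log2 fold change of -2.83 ± 0.56. Its neighbour in number, AN8548, had a log2 fold change of -2.70. In *gmcA* and AN5467 flask 2 held the lowest 0 min level, and the groups did not overlap in either.

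AN3531, a predicted FAD-dependent oxidoreductase, stood at 0.49, 0.29 and 1.06 CPM at 75 min, against 4.77, 2.88 and 5.57 CPM at 0 min. AN6871 stood at 18.5, 12.1 and 9.40 CPM, against 98.2, 39.8 and 27.7 CPM. AN2392 and AN5053, a predicted N-acetyltransferase, had log2 fold changes of -2.30 and -2.28. For AN7875 and AN2392 the groups overlapped, with flask 3 the highest at both times, and in the other 8 of these 10 genes they did not. Of all genes, 9.66% were lower without overlap. These 10 too were picked for their change in every flask, so this count is not independent evidence.

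3 of the 10 genes, AN7875, AN7881 and AN7883, belong to 1 stretch of chromosome II. In the RefSeq gene order, the 11 neighbouring genes tested there, AN7873 to AN7884, were all lower at 75 min in all 3 flasks, with a median log2 fold change of -1.50. This was the longest of 13 runs of 5 or more neighbours with 1 direction in every flask. Of the 11, 10 had an unadjusted edgeR p under 0.05 (against 5.61% of all genes in this direction) and DESeq2 called 9 (against 1.51%). The run was found by its direction in every flask, so these counts are not independent evidence. The groups overlapped in AN7874 to AN7880. The supplement annotates AN7876 and AN7878 with branched-chain aminotransferase activity, AN7879 as an ABC-type ATPase and AN7881 as a monooxygenase. AN7877 stood at 207, 283 and 999 CPM at 75 min, against 1138, 591 and 1665 CPM at 0 min. AN7883 stood at 0.65, 0.77 and 3.84 CPM at 75 min, against 8.18, 3.87 and 20.3 CPM at 0 min. This stretch was noticed after its values were seen, and no test was run on it.

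Genes for the use of sulfonates and other organic sulfur were far higher at 75 min in flasks 1 and 3 and less so in flask 2. All 10 genes of this list were higher in all 3 flasks (against 20.2% of all genes), and without overlap (against 10.7%). Their median log2 fold change was 5.04. 9 of the 10 had an unadjusted edgeR p under 0.05 (against 8.34% in this direction), and DESeq2 called all 10 (against 3.86%). The list was drawn from genes that the study had chosen as overexpressed on these same libraries, so its direction is not independent evidence.

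Taurine dioxygenases split sulfite from taurine and related sulfonates. AN2960, annotated as one, stood at 2568, 1288 and 2899 CPM at 75 min, against 7.84, 414 and 4.02 CPM at 0 min. AN2110, annotated likewise, stood at 3844, 1248 and 4256 CPM, against 57.3, 743 and 19.5 CPM. At 0 min the library of flask 2 was the highest for both genes, and at 75 min it was the lowest. The edgeR log2 fold changes of AN2960 and AN2110 were 7.22 ± 2.40 and 5.34 ± 1.97, and their adjusted p-values were 0.326 and 0.349.

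AN4106, a relative of the *Saccharomyces cerevisiae* sulfonate transporter Soa1, stood at 112, 29.9 and 143 CPM at 75 min, against 0.17, 10.6 and 0.15 CPM at 0 min. AN9191, annotated as an alkanesulfonate monooxygenase, stood at 878, 579.6 and 666 CPM, against 13.3, 224 and 12.2 CPM. AN9490, a relative of the methionine permease Mup1 of *S. cerevisiae*, stood at 198, 71.0 and 178 CPM, against 4.60, 27.1 and 4.64 CPM. Each shows the same split, with flask 2 the highest at 0 min and the lowest at 75 min. The median over the list was 7.08 without flask 2, 3.95 without flask 1 and 3.52 without flask 3. Without flask 2, edgeR called 9 of the 10, and 84 of all 8290 genes.

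**Figure D3:**
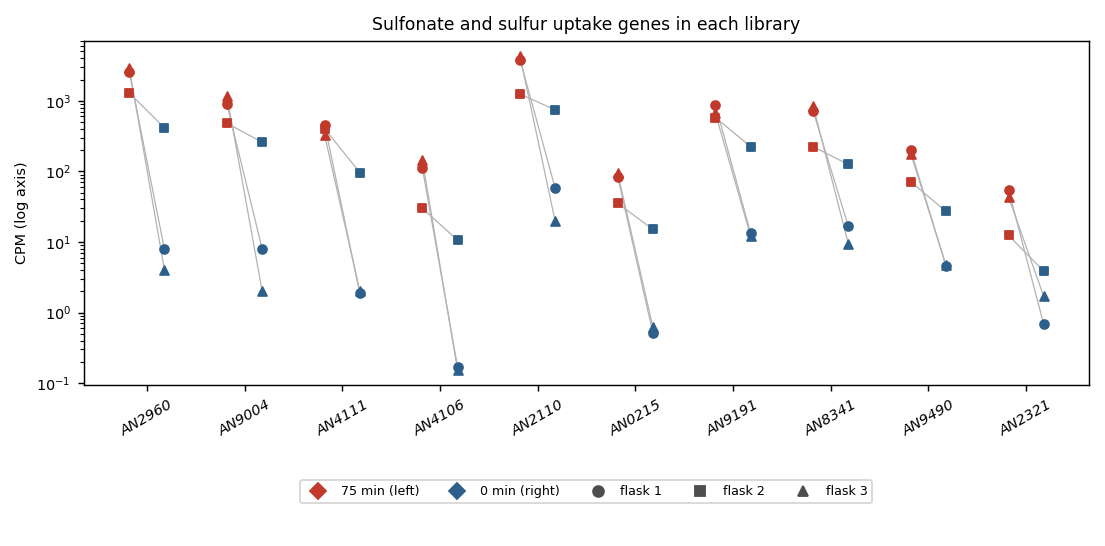
CPM on a log axis of the 10 sulfonate and sulfur uptake genes in each of the 6 libraries, with 75 min left of 0 min and lines joining the libraries of a flask. The squares of flask 2 are the highest at 0 min for every gene and, except for AN4111, the lowest at 75 min, as in AN2960 with 2568, 1288 and 2899 CPM at 75 min, against 7.84, 414 and 4.02 CPM at 0 min.

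Of the 50 genes that the study chose as the most overexpressed over its time course, 49 were higher at 75 min in all 3 flasks (98.0%, against 20.2% of all genes). Their median log2 fold change was 4.36, and the flask medians were 5.39, 1.56 and 6.02. 45 had an unadjusted edgeR p under 0.05 (90.0%, against 8.34% of all genes in this direction), and DESeq2 called all 50 (against 3.86%). Because they were picked on these libraries, these counts describe the list and support nothing. The median was 5.69 without flask 2, 3.77 without flask 1 and 3.4 without flask 3. Without flask 2, edgeR called 32 of the 50 and 84 of all 8290 genes, against 0 with it. The gene not higher in all 3 flasks was AN5546, at 583, 168 and 733 CPM at 75 min, against 12.1, 174 and 5.41 CPM at 0 min. In 3 neighbours of this list, AN7953, AN7954 and *furG* (AN7955), flask 2 was the highest library at 75 min, with 81.2, 1245 and 92.3 CPM for AN7953, against 14.7, 30.7 and 6.03 CPM at 0 min.

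Of the genes that take up sulfate and build it into amino acids, 2 of 6 were higher at 75 min in all 3 flasks (33.3%, against 20.2% of all genes) and 2 were lower (33.3%, against 18.7%). *sC* (AN4769), for ATP sulfurylase, the first enzyme of sulfate activation, stood at 1033, 346 and 772 CPM at 75 min, against 298, 119 and 157 CPM at 0 min. Its log2 fold change was 1.88 ± 0.22 (edgeR, adjusted p = 0.173). *metG*, for cystathionine β-lyase, stood at 218, 119 and 183 CPM, against 48.1, 62.1 and 25.2 CPM, a log2 fold change of 1.99 ± 0.42. The groups did not overlap for either gene, while *sD* and *cysA* had log2 fold changes of -0.24 and -0.29.

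Cell wall genes were lower at 75 min more often than higher, apart from those of α-glucan. Of the 42 wall genes that the study listed, 25 were lower in all 3 flasks (59.5%, against 18.7% of all genes) and 6 were higher (14.3%, against 20.2%). An unadjusted edgeR p under 0.05 was found for 17 in the lower direction (40.5%, against 5.61%) and 3 in the higher (7.14%, against 8.34%). The study took this list from genes that changed in these libraries, so the direction is not independent evidence. The median log2 fold change was -0.42.

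The 5 α-glucan genes went both ways. *agsA*, for an α-1,3-glucan synthase, stood at 21.8, 138 and 17.3 CPM at 75 min, against 10.1, 14.2 and 7.27 CPM at 0 min. Its log2 fold change was 1.91 ± 0.53 (edgeR, adjusted p = 0.284), and flask 2 gave the highest level at 75 min. *agsB*, for the other α-1,3-glucan synthase, stood at 309, 225 and 381 CPM, against 566, 542 and 456 CPM, a log2 fold change of -0.80 ± 0.25. The groups of neither gene overlapped. *agnE*, described above, was the highest of the list.

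Of the 15 β-glucan genes, 13 were lower at 75 min in all 3 flasks (86.7%, against 18.7% of all genes). In the lower direction, 9 had an unadjusted edgeR p under 0.05 (60.0%, against 5.61%). *crh1*, for an enzyme that links chitin to glucan, stood at 151, 112 and 244 CPM at 75 min, against 1015, 242 and 458 CPM at 0 min, a log2 fold change of -1.57 ± 0.44 that was the lowest of the list. *gelA*, for a β-1,3-glucanosyltransferase that elongates the polymer, stood at 1943, 1979 and 1795 CPM, against 2205, 1798 and 1729.7 CPM. The levels of *gelA* overlapped. *fksA*, the catalytic subunit of the synthase that micafungin blocks, stood at 1445, 1528 and 1467 CPM at 75 min, against 1559.95, 1809 and 1688 CPM at 0 min. Its 75 min levels were all lower, by a log2 fold change of -0.19 ± 0.20.

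Of the 16 chitin genes, 8 were lower in all 3 flasks (50.0%, against 18.7% of all genes) and 4 were higher (25.0%, against 20.2%). *ungA*, for UDP-N-acetylglucosamine diphosphorylase, which makes the chitin precursor, stood at 402, 335 and 430.4 CPM at 75 min, against 859, 514 and 1066 CPM at 0 min (log2 fold change -1.01 ± 0.22). *chsB*, a chitin synthase of hyphal growth, stood at 389, 461 and 439 CPM at 75 min, against 551, 559 and 744 CPM at 0 min. *chsC* gave -0.73 on the log2 scale with flask 3 the other way, at 102, 99.9 and 260.2 CPM, against 250.3, 221 and 214 CPM. AN0299, at a log2 fold change of 0.96, was the highest. In the remaining wall genes, *dfgC* of the Dfg family, which attaches mannoproteins to the wall in *S. cerevisiae*, stood at 16.04, 13.1 and 24.9 CPM at 75 min, against 51.8, 40.1 and 41.3 CPM at 0 min.

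**Figure D4:**
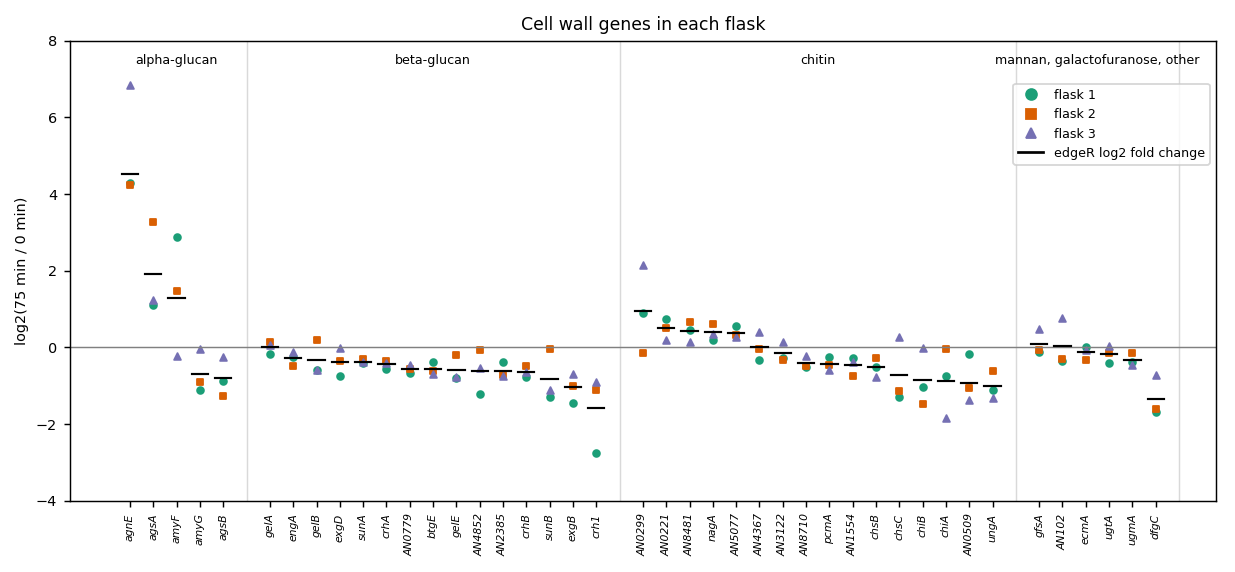
log2(75 min / 0 min) of 42 wall genes in each flask (points) with the edgeR fold change (black bars), by wall polymer. Most bars lie below 0, from -1.57 for *crh1* upward, and *agnE* is the highest at 4.52.

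The genes of the cell wall integrity pathway itself had small fold changes, with a median of -0.19 on the log2 scale over the 7 tested. 4 of the 7, *rom2*, *mkkA*, *mpkA* and *rlmA*, were lower in all 3 flasks (57.1%, against 18.7% of all genes), and their groups did not overlap (57.1%, against 9.66%). None had an unadjusted edgeR p under 0.05. *mpkA*, for the MAP kinase at the end of the cascade, stood at 176, 173 and 156 CPM, against 187, 205 and 184 CPM, and *rlmA* at 67.6, 71.6 and 77.3 CPM, against 83.0, 88.8 and 80.7 CPM. *rhoA* and *mkkA* had the extreme values of 0.03 and -0.37. For *mpkA* and *fksA* the link between name and gene number comes from general knowledge.

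All 9 calcium and calcineurin genes had negative fold changes, and 7 were lower in all 3 flasks (77.8%, against 18.7% of all genes). 3 of the 9 had an unadjusted edgeR p under 0.05 (33.3%, against 5.61%). *cmkA*, for a calmodulin-dependent kinase, stood at 181, 148 and 327 CPM at 75 min, against 521, 339.8 and 435 CPM at 0 min (log2 fold change -1.05 ± 0.27). *crzA*, the transcription factor activated by calcineurin, stood at 65.6, 57.3 and 68.8 CPM, against 85.4, 98.8 and 84.6 CPM. *cnaA*, the calcineurin catalytic subunit, had a log2 fold change of -0.30. Of the HOG pathway, which governs glycerol build-up, *gfdB* for glycerol-3-phosphate dehydrogenase was highest, at 10.5, 9.21 and 6.49 CPM, against 2.04, 3.27 and 1.08 CPM. *hogA* for its MAP kinase was at 257, 191 and 193 CPM, against 189, 192 and 186 CPM.

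Among 16 conidiation genes, 4 were higher in all 3 flasks (25.0%, against 20.2% of all genes) and 4 were lower (25.0%, against 18.7%). *brlA*, the transcription factor that starts conidiophore development, was at 9.33, 22.4 and 2.25 CPM at 75 min, against 1.53, 3.18 and 0.15 CPM at 0 min. *brlA* had a log2 fold change of 2.84 ± 0.31 (edgeR, adjusted p = 0.173). The groups overlapped because flask 3 at 75 min lay below flask 2 at 0 min. *abaA* and *wetA*, which act after *brlA*, had log2 fold changes of 0.30 ± 0.79 and 0.27 ± 0.31. *ivoB*, for a conidiophore pigment enzyme, had a log2 fold change of 4.38, with far more CPM in flask 2 than in the other flasks at 75 min, at 0.65, 46.9 and 1.99 CPM, against 0.51, 1.29 and 0 CPM. The spore pigment and coat genes *wA*, *yA* and *rodA* stayed low, with *yA* the highest of them at 11.8 CPM in flask 1 at 0 min. Of 8 sexual development genes, 2 were higher in all 3 flasks (25.0%, against 20.2% of all genes) and 2 were lower (25.0%, against 18.7%). 6 of the 8 had negative fold changes, and the median was -0.21 on the log2 scale. The highest was *esdC*, at 689, 1022 and 422 CPM, against 169, 466 and 127 CPM.

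Primary metabolism showed both directions. Of 9 nitrogen genes, 3 were lower in all 3 flasks (33.3%, against 18.7% of all genes) and 6 differed in sign between flasks. The flask medians were -0.92, -1.07 and 0.36. The list median of -0.78 was -0.29 without flask 2, -0.45 without flask 1 and -1.03 without flask 3. *gdhA*, for the NADP-dependent glutamate dehydrogenase, stood at 535, 582 and 669.97 CPM, against 1223, 1682 and 1517 CPM. Its log2 fold change was -1.30 ± 0.20 (edgeR, adjusted p = 0.217), and the ammonium transporter gene *meaA* and the glutamine synthetase gene *glnA* had -0.84 and -0.78. Of 10 glycolysis and ethanol genes, 7 were lower in all 3 flasks (70.0%, against 18.7% of all genes). *fbaA*, for aldolase, stood at 1006, 849 and 786 CPM, against 1486, 1405 and 2461 CPM, and *hxkA*, for hexokinase, at 489.5, 413 and 415 CPM, against 776, 675 and 719 CPM. Of 9 glyoxylate and gluconeogenesis genes, 6 were higher in all 3 flasks (66.7%, against 20.2% of all genes) and 1 was lower. All 6 genes that were higher in every flask were so without overlap (66.7% of the 9, against 10.7% of all genes). Among them, *acuE* (malate synthase), *acuD* (isocitrate lyase) and *acuG* (fructose-1,6-bisphosphatase) had log2 fold changes of 1.35, 1.15 and 0.96.

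5 neighbouring genes of chromosome VII, AN1895 to AN1899, were all higher at 75 min in all 3 flasks. They are *maiA*, *fahA*, *hmgA*, *hmgX* and AN1899, and those with known enzymes break down phenylalanine and tyrosine. AN1899, annotated as a 4-hydroxyphenylpyruvate dioxygenase, stood at 66.4, 90.0 and 14.4 CPM at 75 min, against 10.1, 38.4 and 1.86 CPM at 0 min. The median log2 fold change was 1.25, and the groups overlapped in all 5. All 5 had an unadjusted edgeR p under 0.05 (against 8.34% of all genes in this direction), and DESeq2 called all 5 (against 3.86%). They are 1 of the 13 runs counted above, which were found by their direction in every flask. These genes too were noticed after their values were seen.

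Of 5 genes of protein folding in the endoplasmic reticulum, 3 were lower in all 3 flasks (60.0%, against 18.7% of all genes). Each of the 3 had an unadjusted edgeR p under 0.05 (60.0%, against 5.61%), and DESeq2 called 2 (40.0%, against 1.51%). *bipA*, for the chaperone of the lumen, stood at 572, 453 and 884 CPM, against 1187, 1060.5 and 1170.5 CPM, and *clxA*, for calnexin, at 288, 211 and 379 CPM, against 478, 498 and 676 CPM. All 11 actin and tubulin genes had negative fold changes, and 8 were lower in all 3 flasks (72.7%, against 18.7% of all genes). 4 of the 11 had an unadjusted edgeR p under 0.05 (36.4%, against 5.61%). *benA*, for β-tubulin, stood at 789, 754 and 606 CPM, against 1103, 1131 and 1343 CPM. All 10 septation genes had negative fold changes, with *aspC*, a septin, lowest at -0.56. However, 7 differed in sign between flasks and 3 were lower in all 3 (30.0%, against 18.7% of all genes). 1 of the 10 had an unadjusted edgeR p under 0.05 (10.0%, against 5.61% of all genes), and DESeq2 called 0. *nce102*, for an eisosome protein, was higher, at 45.2, 38.1 and 8.21 CPM, against 8.86, 9.92 and 6.03 CPM.

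Of 10 oxidative stress genes, 8 differed in sign between flasks and 2 were higher in all 3 (20.0%, against 20.2% of all genes). *catB*, for a hyphal catalase, stood at 2984, 2400.1 and 3109 CPM at 75 min, against 271, 7119.7 and 171 CPM at 0 min. *trxB*, listed with the thioredoxin system, stood at 4869, 2713 and 6808 CPM, against 754, 9931 and 1022 CPM. Both were higher at 75 min in flasks 1 and 3 and lower in flask 2. The median over 10 genes was 0.43. It was 1.20 without flask 2, 0.14 without flask 1 and 0.2 without flask 3.

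Against the sampling times on either side, the log2 changes within flasks spread less over genes than against 0 min. In genes with a mean of at least 1 CPM, their SD by flask was 0.271 to 0.46 against 60 min and 0.251 to 0.326 against 90 min. Against 0 min it was 0.725 to 1.112. Against 60 min, 0 of 8290 genes passed the edgeR threshold (0.0%), 362 had an unadjusted p under 0.05 (4.37%), limma-voom called 0 and DESeq2 called 19 (0.229%). AN1548 had the smallest p, at 116, 89.3 and 42.1 CPM at 75 min, against 43.7, 37.5 and 14.6 CPM at 60 min (adjusted p = 0.0612). AN9297, annotated with oleate hydratase activity, stood at 41.2, 184 and 21.7 CPM, against 11.6, 55.6 and 8.42 CPM. AN2469, AN2116 and AN2039 followed, with log2 fold changes of 1.41, 1.51 and 0.93. In the other direction the smallest p-values belonged to AN8910, AN1810 (an ornithine aminotransferase), AN2844, AN5467 and AN2545, between -0.59 and -0.33 on the log2 scale.

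Against 90 min, 7 genes passed the edgeR threshold (0.0844%), and all 7 were lower at 75 min. Before adjustment 500 genes had p under 0.05 (6.03%), and DESeq2 called 28 (0.338%). AN1548 stood at 116, 89.3 and 42.1 CPM at 75 min, against 261, 199 and 151 CPM at 90 min, a log2 fold change of -1.37 ± 0.13 (edgeR, adjusted p = 0.00933). The log2 fold changes of the other 6 at 75 min against 90 min were -0.97 for AN2469, -1.07 for AN2116, -1.08 for AN8593, -0.87 for AN2039, -1.01 for AN8060 and -1.15 for AN8544, with edgeR adjusted p-values from 0.00933 to 0.0313. All 7 genes were lower in all 3 flasks, as were 14.1% of the genes tested. Without the replicate block 0 genes passed, and without flask 3 also 0, while 215 passed without flask 2. The 5 genes with the smallest p in the higher direction, AN1586 (an amine oxidase), AN8333, AN2901 (an arginase), AN2844 and AN0045, had log2 fold changes of 0.41 to 0.57 and did not pass.

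**Figure D5:**
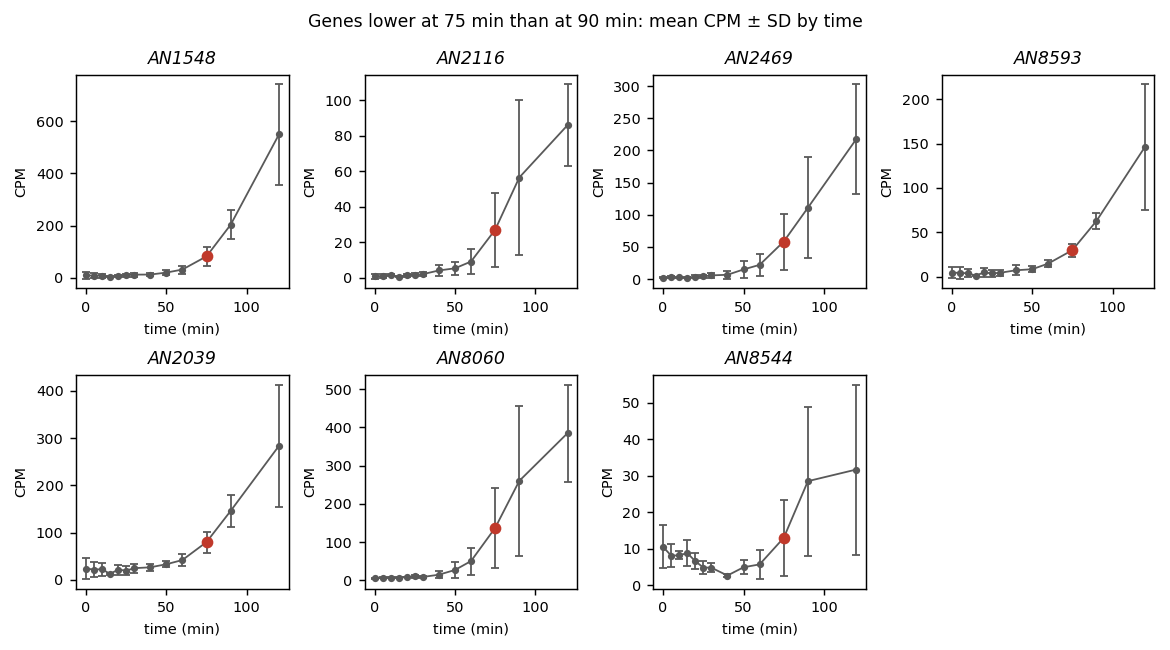
Mean CPM ± SD (3 libraries, 2 at 15 min) over the 13 sampling times, from 0 to 120 min, of the 7 genes that were lower at 75 min than at 90 min, with 75 min in red. AN1548 stood at 116, 89.3 and 42.1 CPM at 75 min, against 261, 199 and 151 CPM at 90 min.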

How the data were processed

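RNA-seq libraries of mycelium from 3 flasks were assigned to times and replicates by their labels. For the deposited raw counts, the authors mapped single-end reads to the FGSC A4 genome of Ensembl Fungi (HISAT2 2.1.0), counted them per gene (HTSeq-count 0.9.1) and then used DESeq2 1.20.0. Neither annotation release nor strand setting was found among the sources used here. 71 columns of normalized values and the authors' comparison columns (fold changes and p-values) were not used. Genes with reads in at least 2 libraries at each time point were tested in edgeR 4.0.16 (R 4.3.3; TMM factors over 38 libraries, quasi-likelihood test, flask as block, Benjamini-Hochberg adjustment, threshold 0.05). DESeq2 1.42.0 and limma 3.58.1 (voom) were alternatives. SE is the log2 fold change over the square root of F, in size. The block was kept because a flask was sampled in series, although deviations of same-numbered libraries correlated only at 0.086, -0.061 and 0.033 across genes. RefSeq (ASM1142v1) gave gene names and order for 8939 of 9541 IDs. The genes named are the 10 with the largest smallest-flask change in each direction (mean of at least 1 CPM), list extremes, genes of fixed role, and for 60 and 90 min the 5 with the smallest p. Other named list members and neighbouring genes were chosen after their values were seen. The members and lists were chosen with earlier results of these data known. The fits were tested on simulated data.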

Additional observations from a re-analysis of the deposited data

How the results depend on the processing

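At 75 min against 0 min, the 0 genes called stayed 0 without the replicate block, with limma-voom, with DESeq2 size factors and with both other filters. DESeq2 called 445, 1 fit of all 38 libraries called 1341, and leaving out 1 replicate gave 0 to 84, with 84 without replicate 2. Against 60 min DESeq2 called 19, no filter on low counts 3 and leaving out a replicate 0 to 42. Against 90 min the 7 calls became 28 with DESeq2, 11 with no filter, 0 without the replicate block, 0 with all 38 libraries in 1 fit and 0 to 215 without a replicate. The causes were not tested. Of 118 genes followed at 75 min against 0 min, 109 kept their sign in every alternative run. Leaving out 1 replicate gave log2 fold changes of -0.88 to 1.29 for *abaA*, -0.20 to 0.041 for *H2B*, -0.11 to 0.86 for *pdcA*, -0.34 to 0.026 for *napA* and -0.065 to 0.096 for *gelA*, each reversed without replicate 2, and of -0.029 to 0.11 for *rhoA*, -0.19 to 0.41 for *nirA*, -0.050 to 0.28 for *palB* and -0.098 to 0.21 for *gfsA*, each reversed without replicate 3 (as was *gelA*, at -0.022). *gelA* was also at -0.0041 without the replicate block, -0.0030 with DESeq2, -0.0021 with limma-voom and -0.0041 with DESeq2 size factors. A fit with 1 flask left out has 1 residual degree of freedom. For genes with few reads, such as AN3339 with 0 reads at 0 min in flask 3, counting limits the precision.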
